A study of Mus musculus with 24 samples.

Results

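Immediate early response genes are switched on within minutes of a stimulus without new protein synthesis. The set described here holds 10 of them, out of 43280 gene symbols in the files: Fos, Fosb, Fosl1, Jun, Junb, Egr1, Ier3, Myc, Atf3 and Plaur. They were taken by name, as genes known to be induced by growth factor and stress signals. All 10 had counts in the files, and 9 of 10 passed the filter on low counts. Fosl1 did not pass it and is described by its counts, with fits that did not use this filter named beside them.

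As background, many immediate early genes are turned on through the RAS, RAF, MEK and ERK kinase cascade. ERK phosphorylates factors such as ELK1, which sits on serum response elements, and CREB and stress kinases feed the same promoters. Proteins of the Fos and Jun families pair to form AP-1, which binds DNA and drives a later set of genes. In the inflamed gut these genes respond to cytokines, microbial products and wound repair signals in epithelium, stroma and leukocytes alike.

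RNA was measured in the colon of C.B-17/Icr-scid/scid mice, which carry the scid mutation in every group and lack mature T and B cells of their own. The mice were 7 weeks of age at purchase, and each of 6 groups held 4 libraries. Normal mice had no treatment. The other 5 groups received CD4+ T cells from female BALB/c mice that had been activated in culture, a transfer that causes colitis. From day 17 these groups got 0.5% methylcellulose (Vehicle), enteric MEK inhibitor microparticles at 0.3 mg/kg or 1 mg/kg (MEKi 0.3 and MEKi 1), an isotype antibody (Isotype) or an anti-TNFa antibody. Oral doses were daily to day 27, and antibodies were injected every 4 days at 0.1 mg per mouse. Colon was taken on day 28. No group had microparticles without drug, so drug and carrier cannot be told apart. The labels number the replicates without saying that each is a separate animal, so the p-values measure the spread between these libraries.

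Library totals were 3052940 to 10587555 counts, with the antibody groups at 6139216 or more and the other 4 groups at 5840995 or less. Colonocyte markers were present in all libraries, at a summed level of 9230 to 17900 CPM, the count scaled to a library total of 1000000. The 8 T cell markers summed to 9.53 to 12.7 CPM in Normal, where Cd3e, Cd3d, Cd5 and Trac were at 0, and to 130 to 184 CPM in Vehicle. Vehicle replicate 4 and Isotype replicate 1 stood apart with summed pancreas markers of 6350 and 4840 CPM, against 441 CPM or less in the other libraries. MEKi 0.3 replicate 4 stood apart within its group in leukocyte markers. Values without these libraries are given beside the results they change most. In bulk tissue, fewer cells of a type and less RNA per cell cannot be told apart.

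The sequences just upstream of 3 members show how differently genes of this set are built. Fos is shown as the textbook immediate early promoter, and Ier3 and Plaur as the members whose levels were lower under the MEK inhibitor. Each line gives the 250 bases before the RefSeq start (GRCm38.p6, gene strand, 5′ to 3′). Capitals mark matches on either strand to the AP-1 motif TGANTCA, the CRE core TGACGT, the TATA motif TATAAA, the EGR motif GCGGGGGCG or the CArG box.

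Fos (chr12:85473640-85473889, + strand): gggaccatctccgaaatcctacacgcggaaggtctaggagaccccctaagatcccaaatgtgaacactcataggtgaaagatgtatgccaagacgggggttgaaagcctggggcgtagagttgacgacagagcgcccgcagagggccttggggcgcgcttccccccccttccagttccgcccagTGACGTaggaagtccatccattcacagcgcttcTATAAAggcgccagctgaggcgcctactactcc

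Ier3 (chr17:35821463-35821712, + strand): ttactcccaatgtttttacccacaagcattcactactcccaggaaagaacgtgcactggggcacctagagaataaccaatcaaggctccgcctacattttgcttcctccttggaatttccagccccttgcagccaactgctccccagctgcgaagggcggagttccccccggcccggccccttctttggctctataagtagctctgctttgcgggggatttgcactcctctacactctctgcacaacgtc

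Plaur (chr7:24462233-24462482, + strand): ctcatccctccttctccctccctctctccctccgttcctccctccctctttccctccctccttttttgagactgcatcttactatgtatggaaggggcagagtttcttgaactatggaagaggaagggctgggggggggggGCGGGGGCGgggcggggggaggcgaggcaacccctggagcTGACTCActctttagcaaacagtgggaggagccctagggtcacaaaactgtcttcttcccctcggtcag

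In the Fos window the CRE core lay 66 to 61 bases before the start and the TATA motif 33 to 28 bases before it. The Plaur window held an AP-1 match 69 to 63 bases before the start and an EGR match 109 to 101 bases before it, and no TATA motif in these letters. The Ier3 window held none of the 5 motifs. Of 7 members with a RefSeq promoter, Fosb held an EGR match 50 to 42 bases before the start and Atf3 a CRE core on the opposite strand 8 to 3 bases before it, while the windows of Jun and Junb held none. Among all 32851 promoters of this length, 6.75% held the AP-1 motif, 6.47% the CRE core, 12.4% the TATA motif, 2.57% the EGR motif and 1.47% the CArG box. A match is a description of letters, and these windows hold neither distal enhancers nor downstream elements. Bases more than 250 before the start were not searched, so the Fos window does not show whether a CArG box lies farther upstream.

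The first question was which members differed between colitic and untreated colon. In Vehicle against Normal, 7 of 9 tested members rose and none fell: Fos, Junb, Egr1, Ier3, Myc, Atf3 and Plaur. In Isotype against Normal, 9 of 9 rose. Of all 14773 genes tested, 23.1% passed as higher and 23.3% as lower in Vehicle, and 20.9% and 20.3% in Isotype (edgeR quasi-likelihood test, Benjamini-Hochberg adjusted p under 0.05, as for all calls here). The median log2 fold change of the tested members was 1.11 in Vehicle and 1.17 in Isotype, and that of all genes was 0.00 and 0.01. Both comparisons share the Normal libraries. The share of all genes whose libraries did not overlap was not counted in any comparison. A lack of overlap is therefore given below as a description and does not set a member apart.

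**Figure D1:**
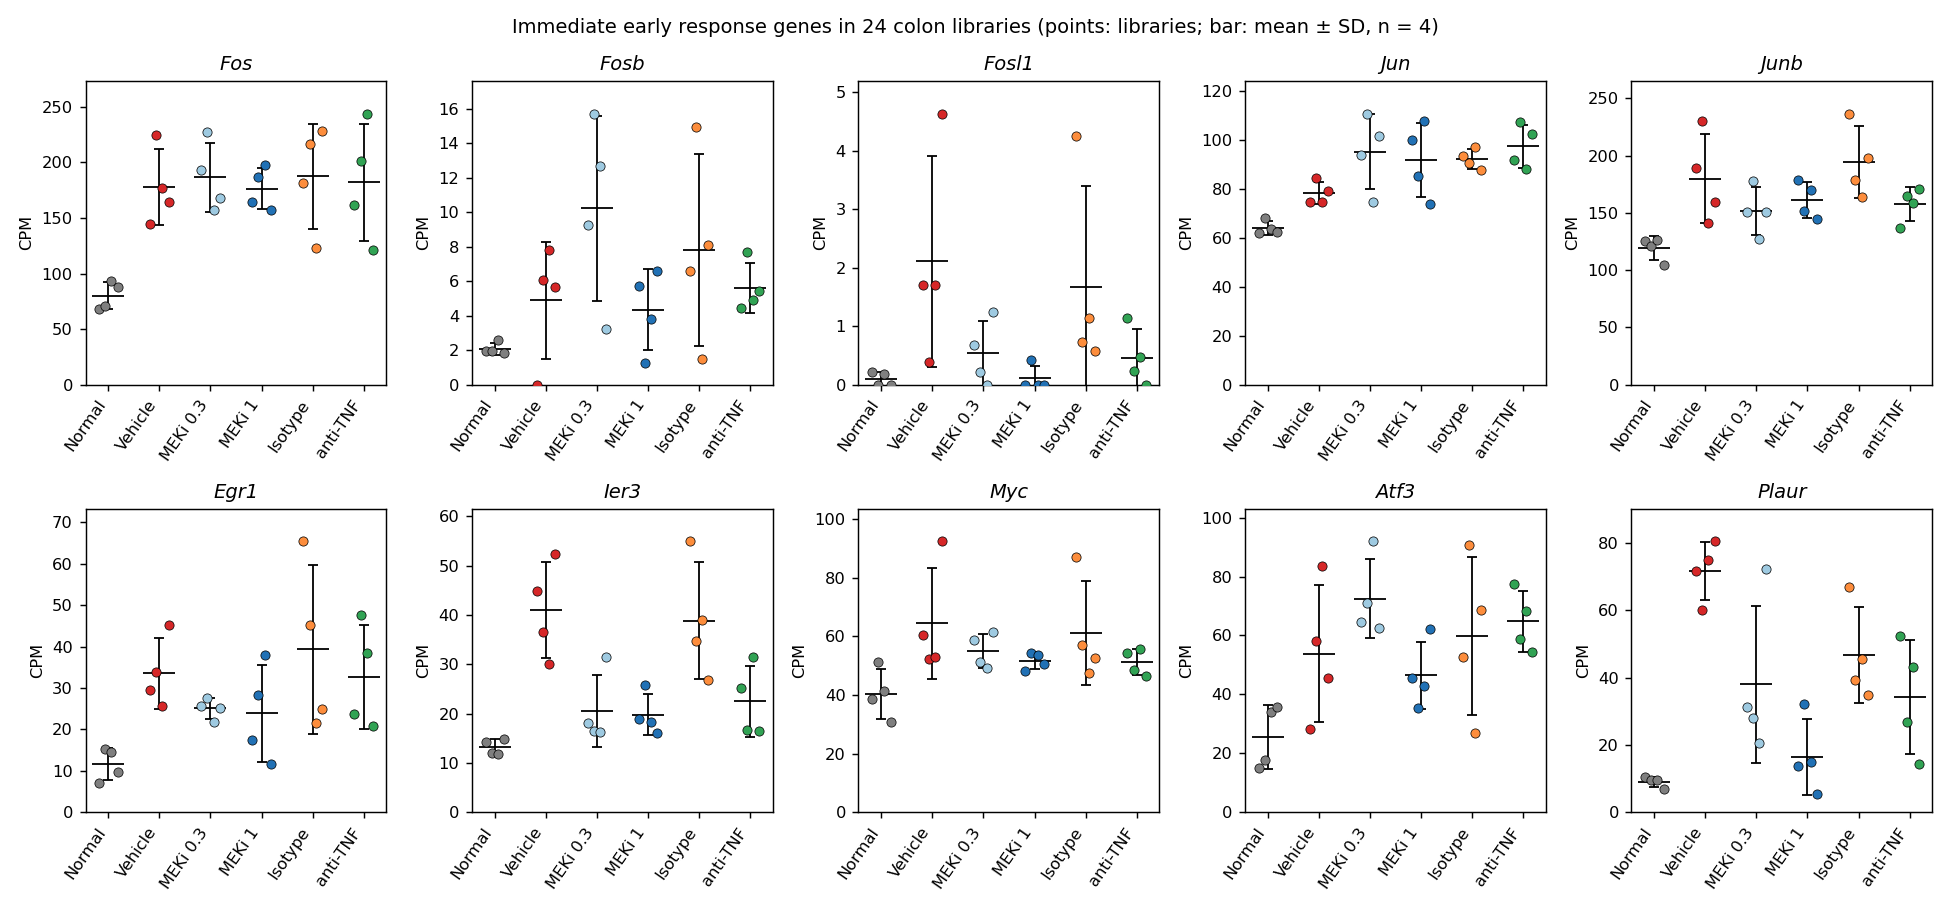
CPM (linear axes from 0) of the 10 members in each of the 24 libraries by group, with a bar at the mean and whiskers of 1 SD (n = 4). Fos was at 68.4 to 93.1 CPM in Normal and at 122 CPM or more in all 20 libraries of the other groups, while Plaur and Ier3 were high in Vehicle and Isotype and lower under the MEK inhibitor.

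Fos encodes the partner of Jun proteins in the classical AP-1 dimer. Its level was 68.4, 71.1, 93.1 and 88.0 CPM in the 4 Normal libraries and 144, 225, 177 and 164 CPM in Vehicle. Isotype libraries held 181, 217, 123 and 228 CPM. Every Vehicle and Isotype library lay above every Normal library. On the log2 scale Fos rose by 1.10 ± 0.20 (SE) in Vehicle (2.15-fold, adjusted p = 0.00013) and 1.17 ± 0.20 in Isotype (adjusted p = 8.59e-05).

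Fosb and Fosl1 are relatives of Fos at far lower levels. Fosb held 1.85 to 2.61 CPM in Normal, 0, 6.07, 7.80 and 5.69 CPM in Vehicle and 6.6, 14.9, 1.47 and 8.12 CPM in Isotype. In each colitic control group 1 library lay below all Normal libraries. The log2 fold change was 1.17 ± 0.73 in Vehicle (adjusted p = 0.199), with a 95% interval of -0.36 to 2.69, and 1.83 ± 0.70 in Isotype (adjusted p = 0.0411). The Isotype call was lost in 7 of 8 fits that left out 1 library, with adjusted p up to 0.144, with no filter on low counts (adjusted p = 0.0793) and with the replicate block. Without Vehicle replicate 1, which had no Fosb count, the Vehicle difference passed (1.59, adjusted p = 0.0355).

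Fosl1, whose product Fra-1 is a late partner in AP-1, was close to the detection limit. Its summed count was 2 in Normal, 39 in Vehicle and 55 in Isotype. Normal libraries had 1, 0, 1 and 0 counts, Vehicle had 8, 2, 7 and 22, and Isotype had 36, 6, 7 and 6. Each colitic control library had more than any Normal one. The ratio of summed counts, each over its group's summed library totals, was 18.5 for Vehicle over Normal with a 95% counting interval of 4.80 to 159, and 14.7 for Isotype over Normal with an interval of 3.88 to 124. Without Vehicle replicate 4 and Isotype replicate 1 the ratios were 10.8 (2.57 to 96.5) and 6.79 (1.64 to 60.1). These intervals cover counting error only. Fits without the filter on low counts passed in both comparisons, with an adjusted p of 0.00756 in Vehicle and 0.0149 in Isotype by edgeR and 0.00683 and 0.0159 by DESeq2.

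Jun and Junb supply the other part of AP-1. Jun held 61.9, 68.1, 63.6 and 62.3 CPM in Normal, 74.9, 84.6, 74.8 and 79.4 in Vehicle and 93.5, 90.8, 97.4 and 87.7 in Isotype. The 3 groups did not overlap, and the differences were small. The log2 fold change of Jun was 0.25 ± 0.12 in Vehicle (adjusted p = 0.0921) and 0.49 ± 0.12 in Isotype (adjusted p = 0.00275). Junb was 119 ± 10.2 CPM in Normal (SD, n = 4), 180 ± 38.9 in Vehicle and 194 ± 31.7 in Isotype, a log2 fold change of 0.55 ± 0.14 (adjusted p = 0.00213) and 0.65 ± 0.14 (adjusted p = 0.000602). Within the set, Junb and Fos had the highest levels per kilobase of exon in all 6 groups. In Normal, Junb was at 51.9 ± 4.44, Fos at 34.1 ± 5.21 and Jun at 20.1 ± 0.893 CPM per kb (SD), each apart from the next by more than these SDs. In Vehicle, Junb at 78.2 ± 16.9 and Fos at 75.5 ± 14.6 CPM per kb were not separated.

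Egr1 encodes a zinc finger factor that is a classic readout of ERK signalling. It held 7.14, 15.4, 14.6 and 9.67 CPM in Normal, 29.4, 33.8, 25.6 and 45.3 in Vehicle and 65.4, 45.3, 21.5 and 25 in Isotype. Neither group overlapped with Normal. Egr1 rose by 1.49 ± 0.36 (log2) in Vehicle (adjusted p = 0.00215) and 1.70 ± 0.36 in Isotype (adjusted p = 0.000828). Atf3, a stress-induced repressor of the ATF/CREB family, held 14.9, 17.7, 34.1 and 35.8 CPM in Normal and 28.4, 58.0, 83.6 and 45.5 in Vehicle, so 1 Vehicle library lay among the Normal ones. Its log2 fold change was 1.02 ± 0.35 in Vehicle (adjusted p = 0.0217) and 1.15 ± 0.35 in Isotype (adjusted p = 0.0121). The Vehicle call of Atf3 was lost without Normal replicate 1 or 2 or Vehicle replicate 3, with adjusted p up to 0.100, and the log2 fold change was then 0.72 to 0.89. A transcript length offset or a fit of the 2 groups alone also ended it (adjusted p = 0.0526 and 0.0529).

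Myc encodes a growth-promoting factor that pairs with Max. Its level was 38.5, 51.4, 41.2 and 30.9 CPM in Normal, 60.4, 52.4, 52.9 and 92.5 in Vehicle and 87.0, 57.3, 47.4 and 52.7 in Isotype. The highest Myc library of each colitic control group was the one with high pancreas markers. Myc rose by 0.63 ± 0.17 (log2) in Vehicle (adjusted p = 0.00506) and 0.54 ± 0.17 in Isotype (adjusted p = 0.0146). Without Vehicle replicate 4 it was 0.43 (adjusted p = 0.0367), and without Isotype replicate 1 it was 0.36 and no longer passed (adjusted p = 0.0894). It also failed in Isotype without Normal replicate 4 (0.45, adjusted p = 0.0617). The part of pancreatic RNA in these values was not tested.

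Ier3 encodes a small protein that modulates ERK signalling and cell survival, and it lies at chr17:35821684-35822923 (mm10, + strand). Its level was 14.3, 12.1, 11.8 and 14.8 CPM in Normal, 44.8, 36.6, 30.0 and 52.5 in Vehicle and 54.9, 34.7, 38.9 and 26.7 in Isotype. No colitic control library reached down to Normal. Ier3 rose by 1.57 ± 0.25 (log2) in Vehicle (2.98-fold, adjusted p = 3.75e-05) and 1.50 ± 0.25 in Isotype (adjusted p = 6.85e-05).

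Plaur encodes the urokinase receptor, which gathers plasminogen activator at the surface of leukocytes and migrating cells, and it lies at chr7:24462484-24475968 (mm10, + strand). It held 10.4, 9.50, 9.52 and 6.99 CPM in Normal, 71.7, 59.9, 74.8 and 80.5 in Vehicle and 67.0, 39.4, 45.5 and 34.9 in Isotype. The gap between Normal and either control was wide. Plaur rose by 2.94 ± 0.45 (log2) in Vehicle (7.66-fold, adjusted p = 4.5e-05), the highest of the 9 tested members, and 2.31 ± 0.44 in Isotype (4.96-fold, adjusted p = 0.000428).

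Leukocyte markers moved with these differences. The 7 macrophage markers found in the files summed to 597 to 674 CPM in Normal, 2680 to 4430 in Vehicle and 1850 to 2350 in Isotype. The 8 neutrophil markers summed to 228 to 443, 739 to 1380 and 599 to 1180 CPM, with Cxcr2, Mmp8 and Stfa2l1 at 0 in Normal and Ly6g at a mean of 312 CPM there. Their part in the rise of the members was not tested. Between the 2 colitic control groups, 0 of 9 members passed in Isotype against Vehicle, where 2.99% of all genes did, and 0 members had an unadjusted p under 0.05. Jun was at 0.23 there (log2, adjusted p = 0.311), with no overlap between its libraries. The share of all genes without overlap was not counted, so this does not set Jun apart.

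The next question was which members moved with MEK inhibition. At 1 mg/kg against Vehicle, Plaur and Ier3 fell, and 7 of 9 tested members did not pass in either direction. Of all genes, 4.51% passed as lower and 6.08% as higher. That all-gene count, 1565 in full, depended on single libraries: it was 43 without MEKi 1 replicate 1, 128 without Vehicle replicate 4 and 2369 without MEKi 1 replicate 2. The median log2 fold change of the tested members was -0.17, and that of all genes was 0.00.

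**Figure D2:**
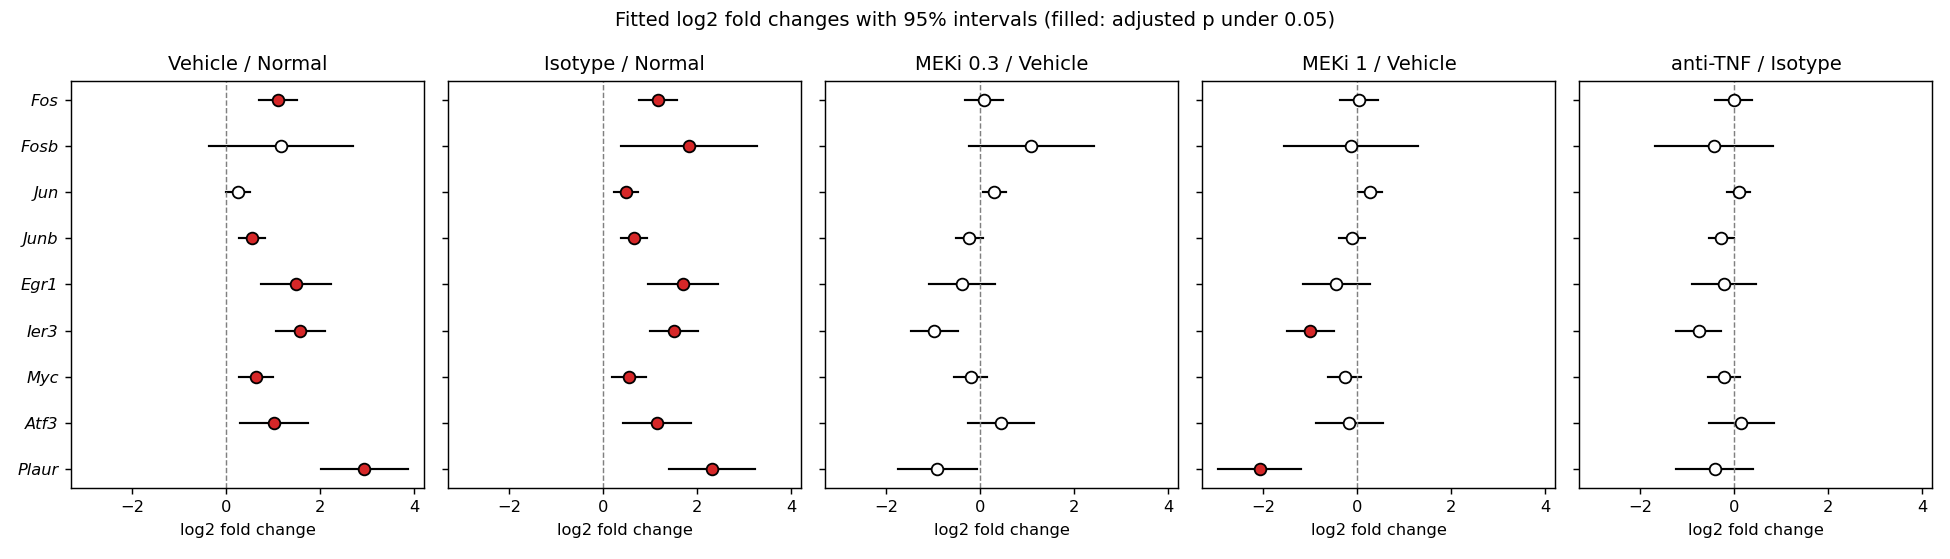
Fitted log2 fold changes (points) with 95% intervals (lines) for the 9 tested members in 5 comparisons, filled where the adjusted p was under 0.05. In the panel of MEKi 1 against Vehicle, Plaur at -2.07 and Ier3 at -1.0 are filled, and the interval of Fos, -0.37 to 0.43, spans 0. The panels share control groups in part and are not independent.

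Plaur was 13.7, 32.1, 14.8 and 5.35 CPM in the MEKi 1 libraries, against 59.9 to 80.5 CPM in Vehicle. All 4 treated libraries lay below all Vehicle libraries. Of them, 3 lay above every Normal library, and replicate 4 lay below every Normal library. The log2 fold change was -2.07 ± 0.42 (4.20-fold lower, adjusted p = 0.0114). Leaving out 1 library at a time gave -2.59 to -1.82, and the call was lost only without MEKi 1 replicate 1 (adjusted p = 0.0618).

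Ier3 was 18.9, 25.9, 18.4 and 16.1 CPM in MEKi 1, below the Vehicle range of 30.0 to 52.5 and above the Normal range of 11.8 to 14.8. The groups did not overlap, which does not set Ier3 apart, as this was not counted over all genes. Ier3 fell, at a log2 fold change of -1.0 ± 0.24 (adjusted p = 0.0182). The call was lost without Vehicle replicate 1 or 4 or MEKi 1 replicate 1 or 3, with adjusted p of 0.0522 to 0.0810 and a log2 fold change of -0.98 to -0.87.

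Fosl1 counts were 0, 2, 0 and 0 in MEKi 1, a summed count of 2 against 39 in Vehicle. Relative to depth this was 0.0597 times the Vehicle value, between 0.00698 and 0.231 by counting error at 95%. Without Vehicle replicate 4 it was 0.102 (0.0115 to 0.431). With no filter on low counts, edgeR gave Fosl1 an adjusted p of 0.0530, and DESeq2 gave 0.0259. A spread between replicates enters those 2 values and not the counting interval.

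The remaining tested members did not pass, with intervals of different width. Fos was 164, 187, 197 and 157 CPM in MEKi 1, inside the Vehicle range, and its log2 fold change was 0.03 ± 0.19 with a 95% interval of -0.37 to 0.43. The interval for Junb was -0.39 to 0.16 around -0.11, and that for Jun was 0.02 to 0.52 around 0.27 (adjusted p = 0.136). Egr1 ranged from 11.7 to 38.0 CPM in MEKi 1, overlapping both Vehicle and Normal. Its interval of -1.16 to 0.26 around -0.45 leaves a fall of more than 1 log2 unit possible. Myc (-0.27, interval -0.62 to 0.09), Atf3 (-0.17, interval -0.88 to 0.55) and Fosb (-0.14, interval -1.57 to 1.29) did not pass either.

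Against Normal, MEKi 1 colon still had 3 of 9 tested members higher, where 8.06% of all genes passed as higher. Those were Fos at 1.14 ± 0.20 (adjusted p = 0.000366), Jun at 0.52 ± 0.12 (adjusted p = 0.00609) and Junb at 0.44 ± 0.14 (adjusted p = 0.0345). The Junb call was lost in 7 of 8 fits without 1 library, with adjusted p up to 0.110, and with a transcript length offset (adjusted p = 0.105). Plaur at 0.87 ± 0.46 (adjusted p = 0.216) and Ier3 at 0.58 ± 0.26 (adjusted p = 0.135) did not pass against Normal, and their intervals reached 1.82 and 1.10. Egr1 at 1.04 ± 0.36 (adjusted p = 0.0624) did not pass either, but it did with DESeq2 (adjusted p = 0.0325). In this comparison 7 of 9 tested members and 4242 genes had an unadjusted p under 0.05.

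At 0.3 mg/kg against Vehicle, 0 of 9 tested members passed, and 3 had an unadjusted p under 0.05. Across all genes 1 passed, or 0.00677%, and 2639 had an unadjusted p under 0.05. DESeq2 called 92 genes and 1 member, Ier3. Ier3 was 18.1, 16.6, 16.2 and 31.5 CPM, and its fitted difference was -0.98 ± 0.24 (log2, adjusted p = 0.180). Plaur was 31.3, 27.9, 20.5 and 72.4 CPM, and its fitted difference was -0.91 ± 0.40 (log2, adjusted p = 0.250). For each gene 3 of 4 treated libraries lay below all Vehicle libraries, and replicate 4 lay within the Vehicle range. That library also held 860 CPM of neutrophil markers and 3300 CPM of macrophage markers, against 268 to 476 and 2021 to 2259 CPM in the other 3. Without it, Ier3 was at -1.24 (adjusted p = 0.0261) and Plaur at -1.40 (adjusted p = 0.0407), in a fit where 1130 of 15025 genes passed (7.52%) in place of 1. In a fit of these 2 groups alone with the replicate number as a block, Ier3 passed (-0.99, adjusted p = 0.0161), as did 405 genes in all. Fosl1 had 4, 1, 0 and 5 counts, a ratio to Vehicle of 0.247 with a counting interval of 0.110 to 0.504, and of 0.424 (0.173 to 0.980) without Vehicle replicate 4.

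No member passed between the doses. For MEKi 1 against MEKi 0.3, 0 of 9 members and 0% of all genes passed, with 1 member (Plaur, -1.16 ± 0.42) and 641 genes at an unadjusted p under 0.05, and 2 genes called by DESeq2. The Atf3 libraries did not overlap, at a mean of 46.5 CPM in MEKi 1 and 72.5 CPM in MEKi 0.3 (-0.61 on the log2 scale, adjusted p = 1). How many of all genes lacked overlap was not counted here either. The difference between doses for Ier3 was -0.02, with a 95% interval of -0.53 to 0.49.

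The anti-TNFa antibody was compared with Isotype, and 0 of 9 tested members passed, beside 0.0203% of all genes. At an unadjusted p under 0.05 there were 1 member and 1653 genes, and DESeq2 called 77 genes and no member. Ier3, the member with that p, was 25.2, 16.7, 31.5 and 16.4 CPM under anti-TNFa against 26.7 to 54.9 in Isotype, so 3 of 4 treated libraries lay below all Isotype libraries. Its log2 fold change was -0.76 ± 0.23 (adjusted p = 0.242). For 4 antibody libraries the series table gives the opposite antibody group, and with the groups as that table names them Ier3 was at -0.15 (adjusted p = 0.993). Plaur was 52.3, 26.8, 43.1 and 14.4 CPM, overlapping Isotype, with a log2 fold change of -0.42 ± 0.39 and a 95% interval of -1.24 to 0.40. Fosl1 had 8, 2, 4 and 0 counts, a ratio to Isotype of 0.271 with a counting interval of 0.139 to 0.494, and 36 of the 55 Isotype counts came from the library with high pancreas markers. Without that library the ratio was 0.585, and its interval of 0.272 to 1.23 spanned 1. Fos was 162, 201, 244 and 122 CPM, a log2 fold change of -0.01 with an interval of -0.41 to 0.39.

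Against Normal, 7 of 9 tested members were higher under anti-TNFa, where 12.5% of all genes passed as higher. Fos (1.16 ± 0.20, adjusted p = 0.000202), Plaur (1.89 ± 0.44, adjusted p = 0.00472), Egr1 (1.48 ± 0.36, adjusted p = 0.00542) and Jun (0.58 ± 0.12, adjusted p = 0.00135) were among them. The calls of Junb (0.38 ± 0.14, adjusted p = 0.0433) and Ier3 (0.74 ± 0.25, adjusted p = 0.0351) were lost in 7 and 6 of 8 fits without 1 library, with adjusted p up to 0.13 and 0.167. Without the 4 antibody libraries in doubt, an analysis added after the data were seen, 3 members passed against Normal and Plaur did not (1.65, adjusted p = 0.0880). In that fit 803 of 15313 genes passed, and the share of all genes that passed as higher was 4.02% in place of 12.5%.

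The effect of MEKi 1 on a member was also set against that of anti-TNFa, each relative to its own control. The difference did not pass for any of 9 members, beside 0.0135% of all genes. It was furthest from 0 for Plaur at -1.65 ± 0.57 (adjusted p = 0.801), and 729 genes had an unadjusted p under 0.05. For Ier3 the difference was -0.24, with a 95% interval of -0.93 to 0.45.

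Ordered by group mean, Ier3 ran from Normal (13.2 CPM) through MEKi 1 (19.8), MEKi 0.3 (20.6) and anti-TNFa (22.5) to Isotype (38.8) and Vehicle (41.0). The 3 treated groups lay within 1 SD of each other, as did both colitic controls. Plaur ran from Normal (9.10 CPM) through MEKi 1 (16.5), anti-TNFa (34.2), MEKi 0.3 (38.0) and Isotype (46.7) to Vehicle (71.7), where anti-TNFa, MEKi 0.3 and Isotype were not separated beyond their SDs. Fos had a different order: Normal at 80.2 CPM and then all 5 transfer groups between 176 and 187 CPM, with SDs of 18.7 to 52.5.

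Libraries of the same group still differed from each other, and members did so in blocks. Each library's log2 CPM was expressed as a deviation from its group mean, and the 45 pairs of members were compared over 24 libraries, with two-sided p-values from 100000 permutations within groups and Benjamini-Hochberg adjustment over the 45 pairs. By both Pearson and Spearman, 5 pairs passed. Plaur deviated with Fosl1 (r = 0.73, rho = 0.82, adjusted permutation p = 0.00045 for each, from the smallest p the permutations can give, 1e-05). Ier3 deviated with Plaur (r = 0.72, rho = 0.74, adjusted p = 0.009 and 0.0126) and with Fosl1 (r = 0.72, rho = 0.68, adjusted p = 0.0165 and 0.0329). Myc deviated with Fosl1 (r = 0.67, rho = 0.65, adjusted p = 0.0171 and 0.0329). Fosb and Atf3 formed a separate pair (r = 0.72, rho = 0.65, adjusted p = 0.00337 and 0.0126).

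**Figure D3:**
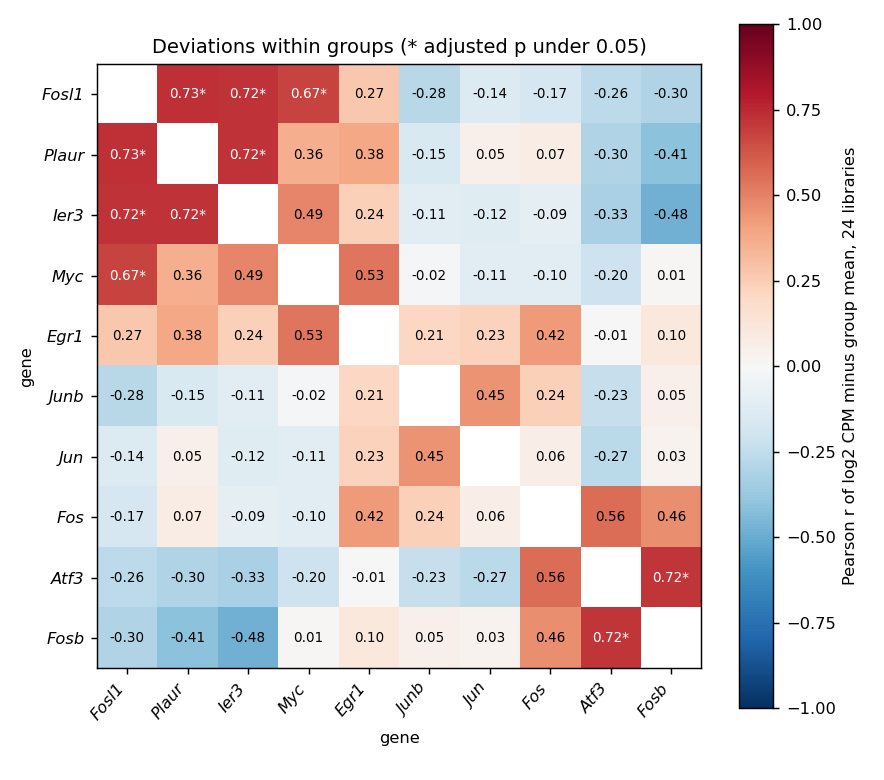
Pearson correlations between members of log2 CPM deviations from group means over 24 libraries, red for positive and blue for negative, with an asterisk where the adjusted p was under 0.05. Fosl1, Plaur, Ier3 and Myc form a positive block at the upper left (Fosl1 and Plaur 0.73), and Fos, Atf3 and Fosb form another at the lower right (Fosb and Atf3 0.72).

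For Fosb and Ier3 r was -0.48 (rho = -0.59, adjusted p = 0.113 and 0.0329), which passed by Spearman only. For Fosb and Plaur r was -0.41 (rho = -0.50, adjusted p = 0.076 and 0.061), which passed by neither. Fos deviated with Atf3 at r = 0.56 and rho = 0.62 (adjusted p = 0.0529 and 0.0376), and hardly with Ier3 (r = -0.09) or Plaur (r = 0.07). Jun and Junb, the AP-1 partners of Fos, gave r = 0.06 and 0.24 with it. Without the 2 libraries farthest from the median of the first gene named, the 5 pairs had r of 0.78 for Fosl1 and Plaur, 0.64 for Ier3 and Plaur, 0.66 for Fosl1 and Ier3, 0.57 for Fosb and Atf3, and 0.48 for Fosl1 and Myc. Without both libraries high in pancreas markers, the first was 0.80 (adjusted p = 0.00225), the second 0.72 (adjusted p = 0.0256) and the Fosb and Atf3 pair 0.76 (adjusted p = 0.0146). Fosb with Ier3 passed as a negative relation there (-0.61, adjusted p = 0.0187). Fosl1 with Ier3 (0.64, adjusted p = 0.0951) and Fosl1 with Myc (0.40, adjusted p = 0.203) then did not pass. For Fosl1 with Myc rho was 0.56 there (adjusted permutation p = 0.147), which did not pass either. Without MEKi 0.3 replicate 4, all 5 pairs passed by Pearson with r of 0.64 to 0.72, and 2 passed by both measures.

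The same deviations were set beside the summed levels of 6 marker lists, in 60 relations adjusted together, a step added after the data were seen. The lists were neutrophil with Ly6g, neutrophil without Ly6g, macrophage, T cell, colonocyte and pancreas, so the 6 lists are not all distinct. Fibroblast, smooth muscle and endothelium markers were not part of this step. The neutrophil sum named below includes Ly6g. Plaur went with the macrophage sum (r = 0.84, rho = 0.65, adjusted permutation p = 0.0079 and 0.0263) and the T cell sum (r = 0.83, rho = 0.62, adjusted p = 0.0079 and 0.0315). Ier3 went with the neutrophil sum (r = 0.71, rho = 0.67, adjusted p = 0.0144 and 0.0263) and the macrophage sum (r = 0.61, rho = 0.67, adjusted p = 0.0072 and 0.0222), and with the T cell sum (r = 0.61, rho = 0.60, adjusted p = 0.0128 and 0.0263). Both went against the colonocyte sum, Plaur at r = -0.70 (rho = -0.67, adjusted p = 0.0072 and 0.0222) and Ier3 at r = -0.78 (rho = -0.76, adjusted p = 0.0072 and 0.012). So did Fosl1 (r = -0.70, rho = -0.67, adjusted p = 0.0117 and 0.0263) and Myc (r = -0.56, rho = -0.57, adjusted p = 0.0324 and 0.0412). Fosl1 also went with the T cell sum (r = 0.53, rho = 0.52, adjusted p = 0.0335 and 0.0499). In contrast, Fosb went with the colonocyte sum (r = 0.69, rho = 0.69, adjusted p = 0.0115 and 0.0144), and so did Atf3 (r = 0.56, rho = 0.64, adjusted p = 0.0484 and 0.0263). Egr1 went with the T cell sum (r = 0.65, rho = 0.65, adjusted p = 0.0229 and 0.0263) and the macrophage sum (r = 0.58, rho = 0.55, adjusted p = 0.039 and 0.0361).

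**Figure D4:**
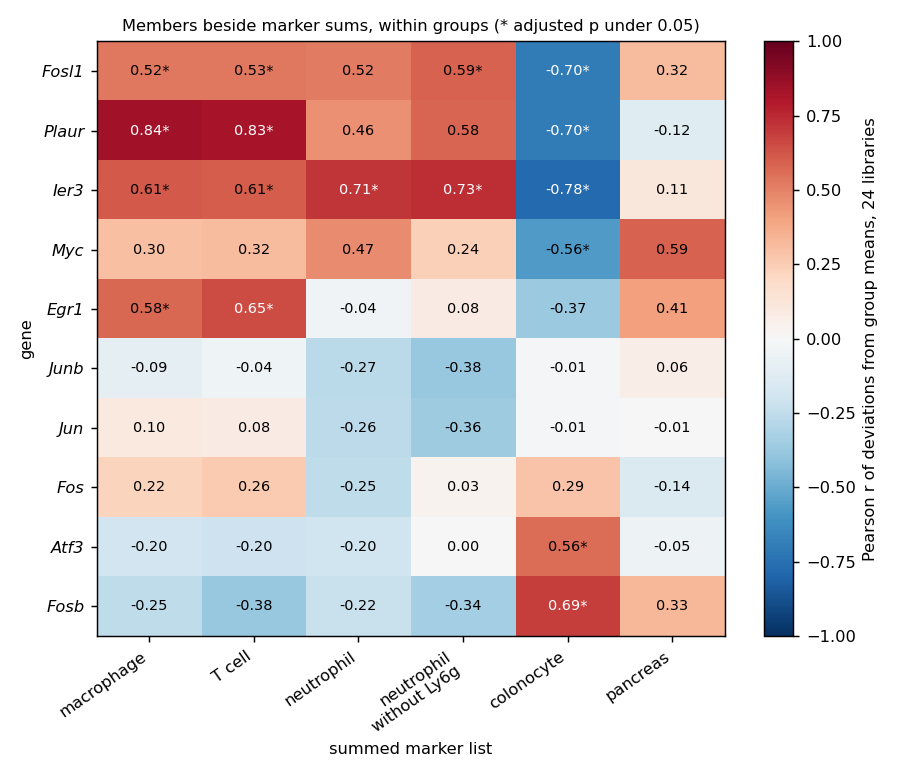
Pearson correlations of member deviations (rows) with deviations of summed marker lists (columns, log2 of summed CPM) within groups over 24 libraries, with an asterisk where the adjusted p was under 0.05. Plaur reaches 0.84 with macrophage markers, while Fosb is at 0.69 and Ier3 at -0.78 with colonocyte markers.

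Fos, Jun and Junb passed with none of the 6 lists. Their relation to fibroblast, smooth muscle and endothelium markers was not tested. In all, 17 of 60 relations passed by Pearson and 16 by both measures, counting the neutrophil list both with and without Ly6g. Without the 2 libraries farthest in the marker sum, the values were 0.73 for Plaur with macrophage markers, 0.70 for Plaur with T cell markers, 0.64 for Ier3 with neutrophil markers, -0.70 for Ier3 with colonocyte markers and 0.61 for Fosb with colonocyte markers. All lists come from the same libraries and share their totals, so a library with more leukocyte RNA has less left for colonocyte RNA. Across treatments the sums moved too: neutrophil markers were at 213 to 437 CPM and macrophage markers at 719 to 2370 CPM in MEKi 1, where Stfa2l1 was at 0. In MEKi 1 against Vehicle, 6 of 8 neutrophil, 4 of 7 macrophage and 5 of 8 T cell markers were lower. The share of all genes that passed as lower was 4.51%. These marker counts come from the fit of all libraries, and calls in this comparison depended on single libraries. The part of cell composition in the fall of Plaur and Ier3 was not tested.

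Members also differed in how widely they scattered. The SD of log2 CPM within groups was 0.15 for Jun, 0.18 for Junb, 0.24 for Myc and 0.30 for Fos, and it was 0.52 for Egr1, 0.53 for Atf3, 0.63 for Plaur, 0.86 for Fosl1 and 1.17 for Fosb. Fosb and Fosl1 had the lowest counts, at a mean of 35.6 and 5.08 per library. The genes most like a member in these deviations, out of 13117 searched over 24 libraries, were Lilrb4 (r = 0.87, rho = 0.85) and Cxcl1 (r = 0.86, rho = 0.85) for Ier3, and Trim35 and Ccsap (r = 0.88 each, rho = 0.76 and 0.79) and Lcp2 (r = 0.88, rho = 0.76) for Plaur. For Fos they were Rnf145 (r = 0.77) and Abcb10 (r = 0.76), and for Egr1 Snx18 (r = 0.77). For Myc the first was Ctrl (r = 0.83), a pancreatic protease gene, and that r was 0.62 without the 2 farthest libraries. These values were picked as the highest and carry no test.

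Related gene lists outside the set were counted for comparison. Their counts read against the shares of all genes given above: 23.1% higher and 23.3% lower in Vehicle against Normal, and 6.08% higher and 4.51% lower in MEKi 1 against Vehicle. The first list held other immediate early genes. In Vehicle against Normal, 12 of 26 tested rose and 1 fell, with a median log2 fold change of 0.46. Nfkbiz, an NF-kappaB cofactor, rose by 1.61 ± 0.18 (adjusted p = 4.55e-07), Nfil3 by 3.12 ± 0.47 (adjusted p = 2.31e-05) and Ier5 by 0.86 ± 0.15 (adjusted p = 7.17e-05), while the survival gene Mcl1 fell by 0.82 ± 0.17 (adjusted p = 0.000608). In MEKi 1 against Vehicle, 0 rose and 2 of 26 fell, both phosphatases that switch off MAP kinases: Dusp1 (-0.76 ± 0.17, adjusted p = 0.0145) and Dusp2 (-1.29 ± 0.39, adjusted p = 0.0379).

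Among 11 other AP-1 family genes, 4 rose and 4 fell in Vehicle against Normal. Batf, Batf2, Batf3 and Jdp2 rose by 2.59 ± 0.44, 1.75 ± 0.26, 1.69 ± 0.39 and 1.11 ± 0.34, where the BATF factors are known from lymphocytes and dendritic cells. Fosl2, another relative of Fos, fell by 0.99 ± 0.23 (adjusted p = 0.00121), from a mean of 168 CPM in Normal, while Fos rose. In Isotype against Normal, 4 of these 11 rose and 2 fell, and Fosl2 (-0.39 ± 0.22, adjusted p = 0.161) and Batf3 (0.80 ± 0.39, adjusted p = 0.107) did not pass. In MEKi 1 against Vehicle, Batf fell by 1.29 ± 0.40 (adjusted p = 0.0405) and Atf7 rose by 0.38 ± 0.12 (adjusted p = 0.0497), and 9 of 11 did not pass.

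**Figure D5:**
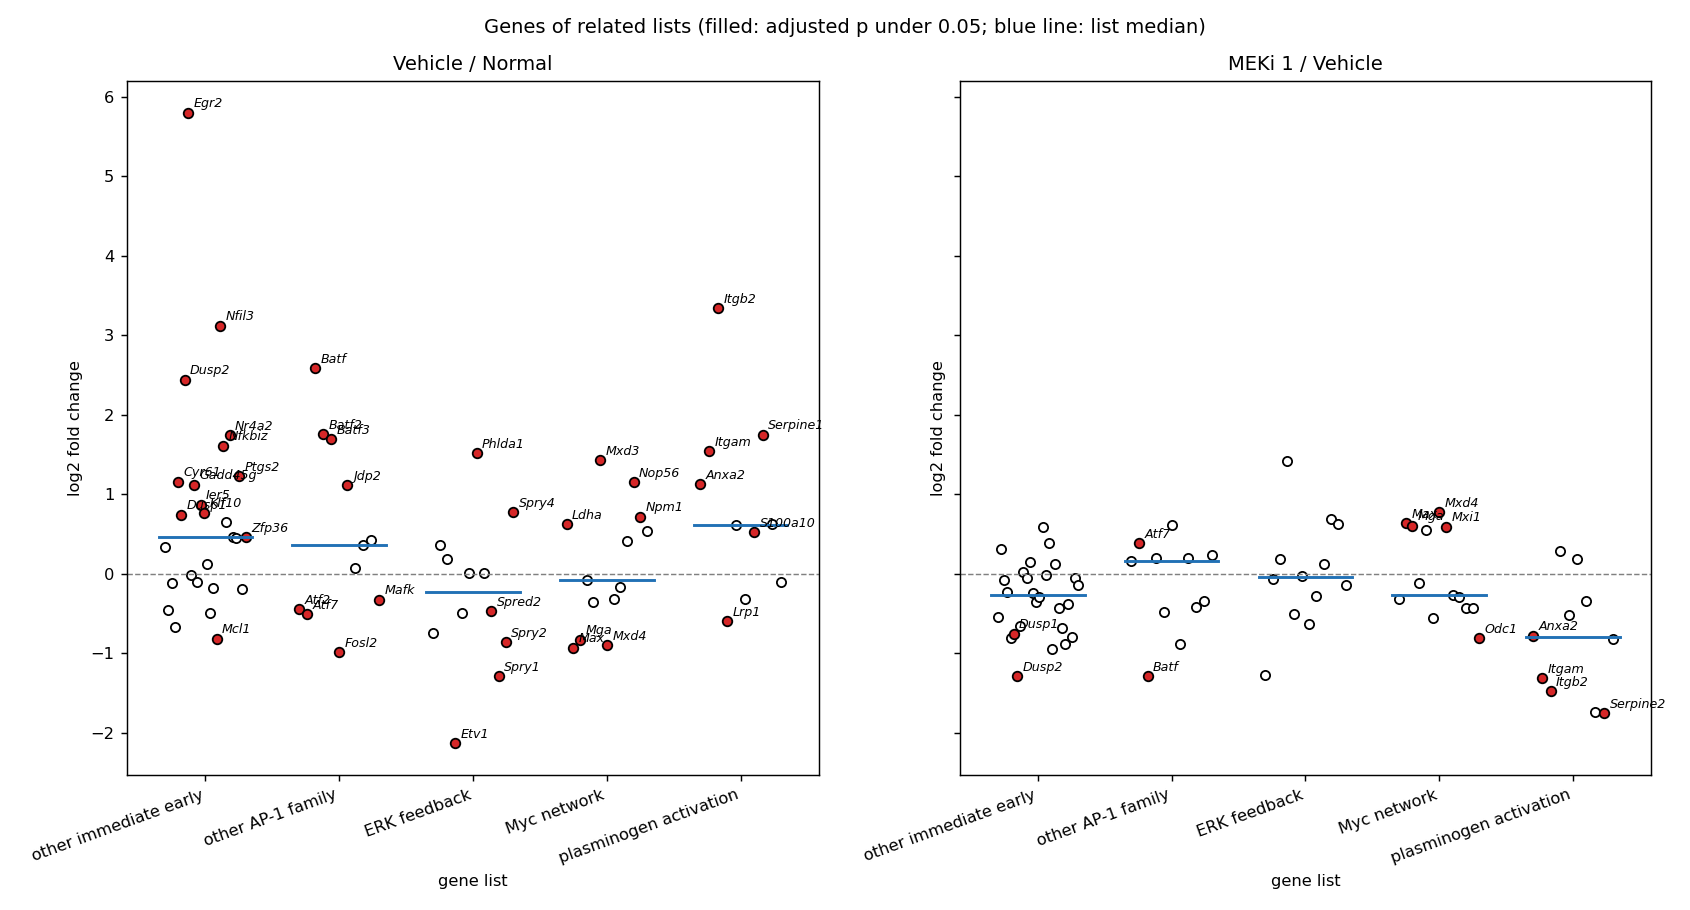
Fitted log2 fold changes of single genes (points) in 5 related gene lists, for Vehicle against Normal and for MEKi 1 against Vehicle, with named filled points where the adjusted p was under 0.05 and a blue line at the list median. In the panel for MEKi 1, the plasminogen activation list has a median of -0.80 and the other immediate early list one of -0.27.

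Plaur acts with a set of proteases, inhibitors and integrins. Of 10 tested genes of plasminogen activation, 5 rose and 1 fell in Vehicle against Normal, and 0 rose and 4 fell in MEKi 1 against Vehicle, with medians of 0.62 and -0.80. The integrin chains Itgb2 and Itgam, with which the urokinase receptor associates on leukocytes, rose by 3.34 ± 0.38 and 1.54 ± 0.39 in colitis. They were at -1.48 ± 0.34 (adjusted p = 0.0161) and -1.32 ± 0.39 (adjusted p = 0.0358) in MEKi 1. Anxa2, a plasminogen receptor chain, was at -0.78 ± 0.22 (adjusted p = 0.0301) and the inhibitor Serpine2 at -1.76 ± 0.48 (adjusted p = 0.0275).

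Myc itself did not pass in MEKi 1 against Vehicle, while 4 of 13 tested genes of its network rose and 1 fell, with a list median of -0.27. Those that rose were its partner Max (0.64 ± 0.17, adjusted p = 0.0252) and the Max-binding genes Mxd4 (0.77 ± 0.22, adjusted p = 0.0312), Mxi1 (0.59 ± 0.17, adjusted p = 0.0318) and Mga (0.60 ± 0.19, adjusted p = 0.0427). Odc1, a Myc target of polyamine synthesis, fell by 0.81 ± 0.25 (adjusted p = 0.0405). Max, Mxd4 and Mga had fallen in Vehicle against Normal, by 0.93 ± 0.17, 0.90 ± 0.22 and 0.83 ± 0.19, in a comparison that shares the Vehicle libraries.

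Upstream of the set, 2 of 16 tested kinases and factors rose and 1 fell in Vehicle against Normal, beside 23.1% and 23.3% of all genes. Map2k1, which encodes MEK1, fell by 1.02 ± 0.15 (adjusted p = 1.56e-05), from 253 ± 4.83 CPM to 128 ± 11.7 CPM, and the ternary complex factor Elk3 rose by 0.68 ± 0.21 (adjusted p = 0.0108). In MEKi 1 against Vehicle, Map2k1 was at 0.50 ± 0.15 (adjusted p = 0.0364) and Elk3 at -0.72 ± 0.21 (adjusted p = 0.0347). Of 12 ERK feedback genes, 2 rose and 4 fell in Vehicle against Normal, and 0 passed in MEKi 1 against Vehicle. At 0.3 mg/kg against Vehicle and under anti-TNFa against Isotype, 0 genes of these 6 lists passed, beside 0.00677% and 0.0203% of all genes. With so few calls over all genes, these counts do not set the lists apart.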

How the data were processed

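Poly(A) RNA of 24 colon samples was fragmented with RNase III and sequenced on an Ion Torrent instrument, per the labels' protocols. The authors deposited raw counts per gene symbol, aligned to mm10 according to the submitters' processing notes. Which aligner, counter, annotation and strand setting they used is not given in the sources used here, so reads of overlapping or antisense genes cannot be told apart. Groups came from the sample each file belongs to. A series table names another sample for 16 of 24 columns. By file, 6 T cell genes had summed counts of 13 to 19 in Normal libraries and 356 to 589 in Vehicle libraries. By the table's names these were 13 to 363 and 17 to 395, so the assignment by file was used. For 4 antibody libraries these counts do not decide.

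CPM is the count scaled to a library total of 1000000. Genes were filtered with filterByExpr and tested with edgeR 4.0.16 in R 4.3.3: TMM scaling, a robust quasi-likelihood fit of all 24 libraries (14773 genes, prior count 0.125, common dispersion 0.0539), and Benjamini-Hochberg adjustment within each comparison at 0.05. The script was tested on simulated data. SE is the absolute log2 fold change over the square root of F, and 95% intervals use the total degrees of freedom, prior and residual together. Exon lengths and gene positions came from GENCODE M21. Correlations used log2 CPM with TMM and a prior count of 2. Alternatives were DESeq2 1.42.0, other scalings, no filter, a transcript length offset, a replicate block, the compared groups alone and leaving out each library. The main fits did not use replicate numbers as pairs. Only in MEKi 0.3 against Vehicle did the deviations of all 4 same-numbered libraries correlate above 0.1, at 0.125 to 0.184. The replicate block was fitted there and in the other comparisons as an alternative. The members, lists, markers and tests were chosen with earlier results of these data known. Named genes are all members and those genes of the fixed lists that passed, with a few examples for each list. For the genes most like a member, up to the first 3 were named.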

Additional observations from a re-analysis of the deposited data

Results flagged for a closer look

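In 4 of 60 combinations of a member and a group, 1 library of 4 stood apart by Dixon's test at its 95% critical value, which chance alone gives in about 1 in 20 combinations. Ier3 was 31.5 CPM (127 counts) in MEKi 0.3 replicate 4 and 16.2 to 18.1 CPM in the other 3. Fosl1 was 4.24 CPM (36 counts) in Isotype replicate 1, the library with high pancreas markers, and 0.567 to 1.14 CPM in the other 3. Fosl1 was 0.428 CPM in MEKi 1 replicate 2, which is 2 counts, and 0 in the other 3. Fosb was 2.61 CPM in Normal replicate 3, which is 14 counts, and 1.85 to 1.97 CPM in the other 3.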

How the results depend on the processing

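Member calls were recomputed under 8 other settings and without each library in turn. Of 1566 recomputed member values, 1439 kept their direction and their side of the threshold, 55 lost a call and 13 gained one. In the other 59 the sign changed where neither fit passed. No call changed its sign. In MEKi 0.3 against Vehicle, where no member passed, DESeq2 called 1 and the replicate block in the compared groups alone called 1, and leaving out a library gave 0 to 2. In MEKi 1 against Vehicle the 2 calls became 0 to 2 when a library was left out. Anti-TNFa against Isotype gave 1 member with the replicate block in the compared groups alone (Ier3, -0.77, adjusted p = 0.0381). Anti-TNFa against Normal gave 3 without the 4 antibody libraries in doubt, in place of 7. The replicate block fitted to all 24 libraries ended 1 member call, Fosb in Isotype against Normal (adjusted p = 0.0647). The block in the compared groups alone ended 5 member calls and added 5.

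Counts over all genes moved more. MEKi 0.3 against Vehicle gave 1 gene, 3 with no filter, 0 in the compared groups alone, 92 with DESeq2 and 405 with the block in the compared groups alone, and 1130 without MEKi 0.3 replicate 4. MEKi 1 against Vehicle gave 1565, and 773 with no filter. Leaving out 1 library gave it 43 (without MEKi 1 replicate 1) to 2369 (without MEKi 1 replicate 2), and 128, 324 and 812 when Vehicle replicate 4, 1 or 2 was dropped and 220 when MEKi 1 replicate 3 was. Scaling by library size only turned its split from 898 higher of 1565 into 639 of 1353. Anti-TNFa against Isotype gave 3, and 0 in the compared groups alone, 2 by library size, with no filter or with the block, 77 with DESeq2 and 277 with the block in the compared groups alone. Isotype against Vehicle gave 442, and 47 with the length offset, 267 with no filter, 789 with DESeq2 and 164 with the block in the compared groups alone. It gave 4 without the 4 antibody libraries in doubt, and 128 to 493 without 1 library. Anti-TNFa against Normal gave 3310, 803 without those 4 libraries, and 1869 (without anti-TNFa replicate 1) to 4831 (without replicate 4) when 1 library was left out. MEKi 1 against Normal gave 1898, and 1026 without MEKi 1 replicate 2. Anti-TNFa against Isotype reached 34 without Isotype replicate 4, and the difference between treatments 5 without Isotype replicate 3. The difference between treatments gave 2, and 3 in the compared groups alone, 7 with DESeq2 and 5 with that block. The causes were not tested. Depth limits Fosl1 and Fosb, whose mean counts were 5.08 and 35.6.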

Other observations

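The ERK feedback list, the nearest readout of the kinase pathway outside the set, did not move as a block in colitis. In Vehicle against Normal, Phlda1 rose by 1.52 ± 0.37 (adjusted p = 0.00239) and Spry4 by 0.77 ± 0.29 (adjusted p = 0.0304). Etv1 fell by 2.13 ± 0.46 (adjusted p = 0.000698), Spry1 by 1.29 ± 0.34 (adjusted p = 0.00393), Spry2 by 0.86 ± 0.21 (adjusted p = 0.0022) and Spred2 by 0.47 ± 0.15 (adjusted p = 0.0135). The list median was -0.23 in this comparison. In Isotype against Normal, Phlda1, Spry4, Etv1 and Spry1 passed in the same directions, and Dusp6 rose (0.72 ± 0.22, adjusted p = 0.0117). Spry2 (-0.50 ± 0.21, adjusted p = 0.0579) and Spred2 (-0.21 ± 0.15, adjusted p = 0.274) did not pass there. Smooth muscle markers summed to 6210 to 7980 CPM in Normal and 1390 to 3270 CPM in Vehicle. All 6 of these markers were lower, beside 23.3% of all genes. Their part in the fall of Etv1, Spry1 and Spry2 was not tested.

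Egr2, the relative of Egr1 known from T cell responses, rose by 5.8 ± 0.85 in Vehicle (adjusted p = 1.51e-05), from a mean of 0.047 CPM in Normal. Ptgs2, the inducible cyclooxygenase gene, rose by 1.23 ± 0.49 (adjusted p = 0.0451). The AP-1 genes Atf2, Atf7 and Mafk fell by 0.45 ± 0.13, 0.51 ± 0.12 and 0.33 ± 0.13 in Vehicle. In Isotype against Normal, Atf7 fell (-0.30, adjusted p = 0.0494), while Atf2 (-0.15, adjusted p = 0.36) and Mafk (0.07, adjusted p = 0.70) did not pass.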
